A study of Homo sapiens with 8 samples.

Results

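The 46 genes described here encode the machinery of the cell division cycle, and they were chosen by symbol from the 13771 genes of the deposited expression table. Of the 46, 20 act in S phase (5 regulators of the passage from G1 to S, 12 genes of origin licensing and the replication fork, 3 genes of nucleotide supply) and 26 act in mitosis (9 drivers of the passage from G2 to M, 5 genes of the spindle checkpoint and anaphase, 10 genes of the spindle, kinetochore and cytokinesis, and the proliferation markers MKI67 and TOP2A). All 46 symbols were found in the table and each gene had between 151 and 15896 reads in every library.

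RNA-seq was carried out on 8 libraries in 4 groups of 2. MCF10A, a non-tumorigenic human breast epithelial cell line, and DCIS.COM, a line of the same lineage derived as a model of ductal carcinoma in situ, were stably transduced with a pCDH vector carrying the long noncoding RNA HOTAIR (pCDH-HOTAIR) or with the vector alone (pCDH-empty). All 4 groups were selected with puromycin and harvested from subconfluent plates. MCF10A was grown in medium with horse serum, epidermal growth factor, hydrocortisone, insulin and cholera toxin, and DCIS.COM in the same base medium with horse serum alone, so that cell line and culture medium cannot be told apart. Nothing in the labels states that the 2 libraries of a group came from separate cultures and the p-values therefore measure the spread between these libraries, which may be technical.

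Passage through the cell cycle is driven by cyclins and cyclin-dependent kinases (CDKs). D-type and E-type cyclins with CDK4, CDK6 and CDK2 release E2F transcription factors from the retinoblastoma protein family, E2F target genes license and fire replication origins, and cyclin A and B with CDK1 then bring the cell into mitosis, which the anaphase-promoting complex with CDC20 ends. Most of these transcripts oscillate within each cycle and are low in resting cells. Their level in bulk RNA therefore depends both on the share of cells that are cycling and on the amount of RNA per cycling cell, and these cannot be told apart here.

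The promoters of both gene classes are known to hold different short elements. S phase promoters often contain E2F sites, and mitotic promoters often contain CCAAT boxes and a cell cycle genes homology region (CHR). The 250 bases upstream of the annotated start (RefSeq, GRCh38.p14, written 5′ to 3′ in the direction of the gene) are shown for PCNA and CDK1 as textbook genes of either phase, and for the subunit pairs RRM1 with RRM2 and CCNB1 with CCNB2, whose members differed between the cell lines to unequal extents. Capitals mark 3 kinds of motif, each searched on either strand. The CHR motif was taken as TTTGAA and, as the other form of this element that is known from mitotic genes, TTTAAA. The CCAAT box was searched by the letters of its name. The E2F motif was searched in the common form TTGGCGC, and also, since the middle of the site is known to vary between target genes, in a version spelled TTCCCGC, in a further version of the same length spelled TTGCCGC, and in the last version of this search, which was spelled TTCGCGC.
PCNA (chr20:5126623-5126872, minus strand): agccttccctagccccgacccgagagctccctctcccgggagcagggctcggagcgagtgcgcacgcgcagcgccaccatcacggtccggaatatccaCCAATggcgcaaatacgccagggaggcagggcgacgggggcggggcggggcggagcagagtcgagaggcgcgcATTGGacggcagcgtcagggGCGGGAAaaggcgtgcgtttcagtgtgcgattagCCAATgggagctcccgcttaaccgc
RRM1 (chr11:4094435-4094684, plus strand): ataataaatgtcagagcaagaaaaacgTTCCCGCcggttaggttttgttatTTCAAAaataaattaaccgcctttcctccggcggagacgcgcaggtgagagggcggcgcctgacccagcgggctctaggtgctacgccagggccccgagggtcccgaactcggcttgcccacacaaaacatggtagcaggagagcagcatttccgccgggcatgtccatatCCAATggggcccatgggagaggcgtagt
RRM2 (chr2:10122489-10122738, plus strand): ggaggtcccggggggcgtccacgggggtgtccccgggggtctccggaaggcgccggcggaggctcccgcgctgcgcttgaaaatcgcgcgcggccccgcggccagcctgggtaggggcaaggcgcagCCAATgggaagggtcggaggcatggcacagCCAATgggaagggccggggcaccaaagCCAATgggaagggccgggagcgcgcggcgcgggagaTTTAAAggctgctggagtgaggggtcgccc
CDK1 (chr10:60778081-60778330, plus strand): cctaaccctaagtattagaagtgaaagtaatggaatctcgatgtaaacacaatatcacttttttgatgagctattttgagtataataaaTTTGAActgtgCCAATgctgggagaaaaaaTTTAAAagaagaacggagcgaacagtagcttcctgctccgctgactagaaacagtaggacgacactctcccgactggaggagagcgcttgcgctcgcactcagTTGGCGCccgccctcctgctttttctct
CCNB1 (chr5:69166900-69167149, plus strand): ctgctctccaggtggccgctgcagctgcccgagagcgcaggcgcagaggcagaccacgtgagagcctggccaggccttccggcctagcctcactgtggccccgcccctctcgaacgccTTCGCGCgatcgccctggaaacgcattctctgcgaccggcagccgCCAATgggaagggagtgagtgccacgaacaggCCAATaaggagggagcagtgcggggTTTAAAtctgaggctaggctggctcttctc
CCNB2 (chr15:59104896-59105145, plus strand): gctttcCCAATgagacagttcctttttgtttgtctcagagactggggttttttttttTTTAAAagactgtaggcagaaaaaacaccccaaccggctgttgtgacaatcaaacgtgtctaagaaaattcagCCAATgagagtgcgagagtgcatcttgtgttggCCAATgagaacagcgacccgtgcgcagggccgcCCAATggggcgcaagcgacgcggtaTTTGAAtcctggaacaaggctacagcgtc

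Promoters in the RefSeq table, which cover 250 bases before to 50 bases after the start, were matched for 35 of the 46 genes (15 of S phase with 23 promoters and 20 of mitosis with 25 promoters). CHR letters were present in 19 of the 25 mitosis promoters (76.0%), in 4 of the 23 S phase promoters (17.4%) and in 24.0% of all 35116 promoters of the table. E2F letters were present in 6 mitosis promoters (24.0%), 15 S phase promoters (65.2%) and 13.0% of all promoters. CCAAT was common to both, in 80.0% of mitosis and 73.9% of S phase promoters against 34.6% of all. No motif overlapped another in the sequences printed above. CCNB2 held 2 CHR matches and 4 CCAAT boxes and no E2F letters, whereas PCNA held 3 CCAAT boxes and an E2F match and no CHR letters. A match describes letters in a window, not a site. Promoters of CCND1, CCNE2, CDK2, MCM4, MCM5, FOXM1, AURKA, TTK, UBE2C, BIRC5 and TPX2 were not analysed here.

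Recovered library totals ran from 19306864 to 34884841 reads. HOTAIR had 40 to 140 reads in the 4 empty-vector libraries and 4614 to 7166 in the 4 HOTAIR libraries, the order the labels give. All 8 basal and all 4 pan-epithelial markers were in the table. Of 5 luminal hormone receptor markers 4 were measured, PGR was not analysed here, and ESR1 did not exceed a log2 CPM of 1.72. Of 6 fibroblast markers 1 (COL1A1) was measured, of 5 immune markers 2 (CD14 and CD68) and of 4 endothelial markers 1 (PECAM1). The summed level of the basal markers was 15793 to 17801 CPM in MCF10A and 3097 to 3857 CPM in DCIS.COM. That of the pan-epithelial markers was 1600 to 1725 CPM against 4872 to 6259 CPM, and that of the luminal markers 214 to 249 CPM against 55.8 to 68.4 CPM. The luminal sum in MCF10A was mostly that of AREG, which reached a log2 CPM of 7.86. FOXA1, GATA3 and ESR1 did not exceed 4.63, 3.42 and 1.72 in any library. The summed level of the measured immune markers was 41.4 to 47.1 CPM in MCF10A and 5.63 to 6.55 CPM in DCIS.COM. That of PECAM1 was 1.70 to 2.69 CPM against 10.1 to 13.3 CPM, and that of COL1A1 was 6.96 to 14.7 CPM against 1.01 to 1.66 CPM. Their part in the results was not tested. The library DCIS.COM pCDH-empty 1 stood apart, with 18.9% of its reads on RN7SL1 and RN7SL2 against 11.1% to 15.0% in the other 7 libraries, and with levels of the division genes that followed their base composition.

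**Figure D1:**
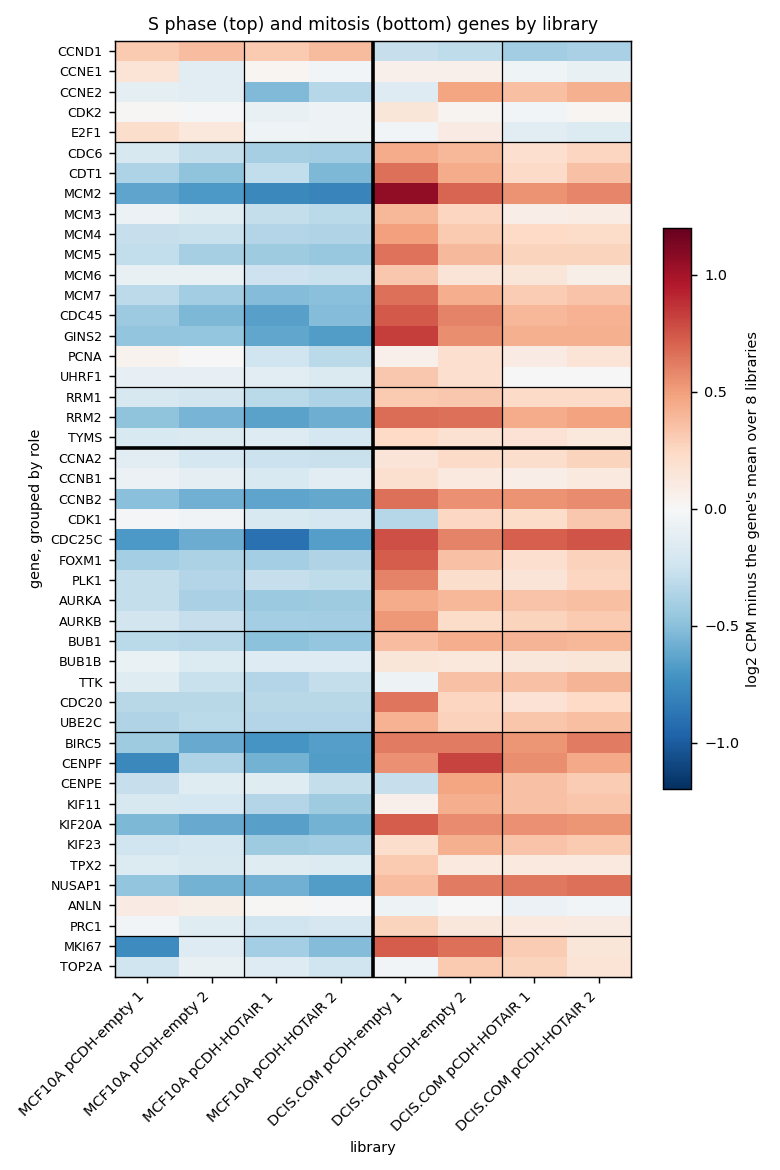
Heat map of the 46 genes (rows, grouped by role with S phase above the thick line and mitosis below it) in the 8 libraries (columns), coloured by log2 CPM minus the gene's mean over the libraries. Most rows are blue in the 4 MCF10A columns and red in the 4 DCIS.COM columns, CCND1 is the reverse, and CCNE1, CDK2, E2F1 and ANLN are pale throughout.

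To order the genes by level, the mean CPM of each group was divided by transcript length in kilobases (the longest transcript in GENCODE release 44 on GRCh37, coding where there is one). In MCF10A pCDH-empty, PCNA, the sliding clamp of the replication fork, was highest at 127 CPM per kb. It was followed by CCNB1 (cyclin B1) at 108, ANLN, the contractile ring scaffold anillin, at 105, and CCND1 (cyclin D1) at 94.3 CPM per kb. At the bottom were CDC25C, the phosphatase that activates CDK1, at 4.46 CPM per kb and the E-type cyclins CCNE1 and CCNE2 at 7.05 and 7.52. In DCIS.COM pCDH-empty the highest level was that of RRM2, the inducible subunit of ribonucleotide reductase, at 137 CPM per kb, next to PCNA at 137 and CCNB1 at 129. There CCND1 held rank 15 of 46, against rank 4 in MCF10A pCDH-empty, and MCM2, a subunit of the replicative helicase, held rank 6, against rank 17. The neighbouring levels of RRM2 and PCNA, and of CCNE1 and CCNE2 in MCF10A, were not tested against each other.

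Compared with MCF10A, DCIS.COM carried more RNA of most of these genes under either vector. With the empty vector, 23 of the 46 genes were called higher in DCIS.COM and 1, CCND1, was called lower, where a call is an adjusted p-value under 0.05 in limma with Benjamini-Hochberg adjustment over all 13771 genes and a fold change of at least 1.5. Over all genes tested, 22.5% were called higher and 23.8% lower in the same comparison. By the adjusted p-value alone it was 37 genes higher and 1 lower, against 33.8% and 34.4% of all genes. In the libraries with HOTAIR, which are separate from those with the empty vector, 24 genes were called higher and 1 lower, against 22% and 21.7% of all genes, and by the adjusted p-value alone 40 higher and 1 lower, against 32.8% and 32.7%. Of the division genes, 20 were called higher in both comparisons, CCND1 was called lower in both, and 18 were called in neither. The median log2 fold change was 0.48 for the S phase genes and 0.66 for the mitosis genes with the empty vector, and 0.58 and 0.69 with HOTAIR, while that of all genes was 0.00 in either comparison. In 38 of the 46 genes, all 4 DCIS.COM libraries lay above all 4 MCF10A libraries, against 34.6% of all genes, and CCND1 alone showed the reverse, against 35.6% of all genes. CCNE1, CCNE2, CDK2, E2F1, CDK1, CENPE and ANLN overlapped between the lines. The calls with the empty vector depended in part on the library DCIS.COM pCDH-empty 1. Without it CCNE2, CENPE, KIF11 and KIF23 were called higher (0.59, 0.68, 0.64 and 0.65 on the log2 scale), and the calls of AURKB and PLK1 (0.47 and 0.53) were lost.

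**Figure D2:**
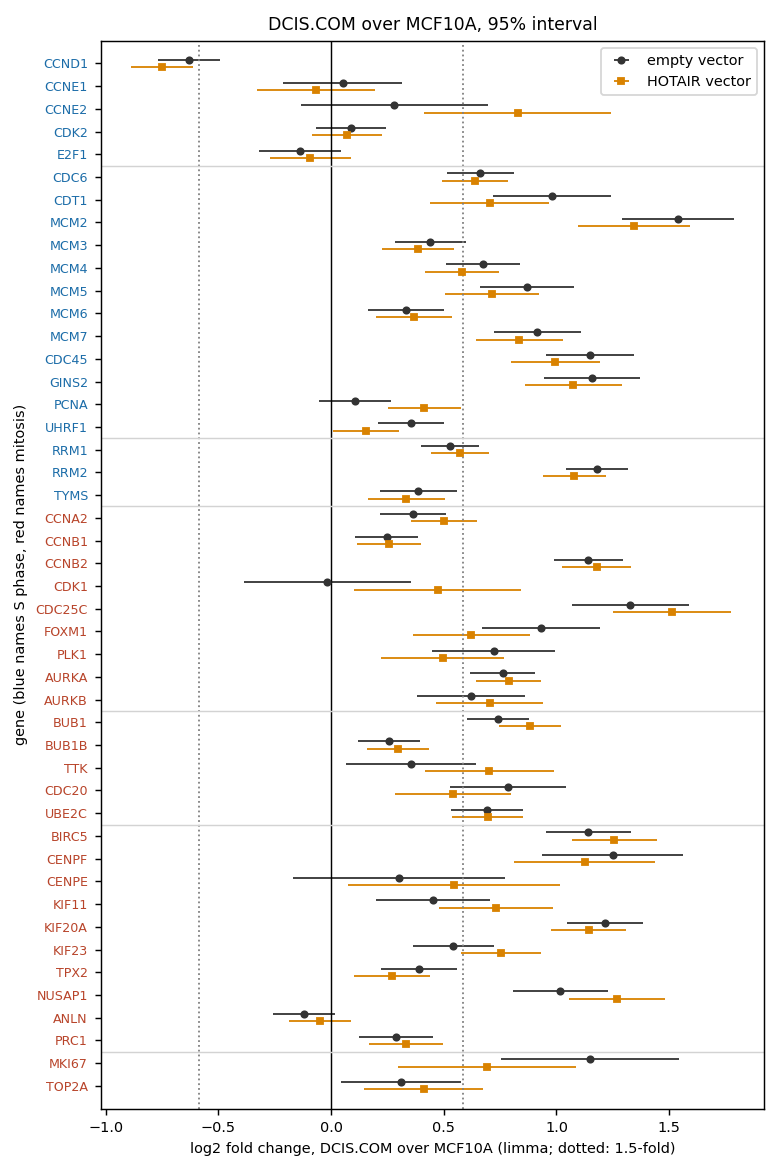
Log2 fold change of DCIS.COM over MCF10A from limma for each of the 46 genes, with its 95% interval, for the empty vector (circles) and the HOTAIR vector (squares), and dotted lines at a 1.5-fold change. MCM2 and CDC25C lie farthest to the right at 1.54 and 1.33 with the empty vector, and CCND1 is the only gene whose points lie to the left of the lower dotted line.

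Regulators of the passage from G1 to S included the only call for lower RNA in DCIS.COM. Of the 5, with the empty vector 0 were called higher and 1 lower, against 22.5% and 23.8% of all genes. The median log2 fold change of the 5 was 0.05, against 0.77 for the 12 licensing and fork genes. Cyclin D1, which activates CDK4 and CDK6 in response to growth factors, had log2 CPM values of 8.61 and 8.67 in MCF10A pCDH-empty and 8.62 and 8.68 in MCF10A pCDH-HOTAIR. In DCIS.COM it had 8.03 and 8.00 with the empty vector and 7.88 and 7.92 with HOTAIR. Every DCIS.COM library was thus below every MCF10A library, by a log2 fold change of -0.63 with the empty vector (standard error (SE) 0.060, limma adjusted p = 3.25e-05) and -0.75 with HOTAIR (adjusted p = 1.17e-05). CCND1 lies on chromosome 11 from 69455924 to 69469242 (GRCh37), where the annotated span of LTO1 overlaps it on the opposite strand. CCNE1, the cyclin that activates CDK2 at the start of S phase, had a log2 fold change of 0.05 with the empty vector (95% interval -0.21 to 0.31, adjusted p = 0.70). E2F1, the activating E2F factor, had one of -0.14 (95% interval -0.32 to 0.04, adjusted p = 0.149), and CDK2 one of 0.09 (95% interval -0.06 to 0.25). These intervals lie within a 1.5-fold change in either direction. CCNE2 was called higher in DCIS.COM with HOTAIR, with log2 CPM values of 4.24 and 4.43 in MCF10A and 5.13 and 5.20 in DCIS.COM, a log2 fold change of 0.83 (SE 0.18, limma adjusted p = 0.00387). With the empty vector its DCIS.COM libraries were apart at 4.62 and 5.24, and its log2 fold change of 0.28 was not called (adjusted p = 0.198). It was 0.59 and called without DCIS.COM pCDH-empty 1 (limma adjusted p = 3.09e-04), 0.60 and called after correction for GC content (limma adjusted p = 2.29e-04), and -0.03 without DCIS.COM pCDH-empty 2.

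Cyclin D1 is 1 of 3 D-type cyclins, and the other two, which are not among the 46, moved in opposite directions. CCND2 had 0 and 0 reads in MCF10A pCDH-empty and 1 and 0 in MCF10A pCDH-HOTAIR, but 516 and 436 reads in DCIS.COM pCDH-empty and 898 and 793 in DCIS.COM pCDH-HOTAIR. With a floor of 3 reads in each library, it was at least 160.0-fold higher in DCIS.COM with the empty vector. The log2 CPM of CCND3 was 6.67 and 6.74 in MCF10A pCDH-empty and 5.67 and 5.26 in DCIS.COM pCDH-empty, a log2 fold change of -1.24 (limma adjusted p = 4.78e-05). The partner kinases CDK4 and CDK6, chosen after their values were seen, had log2 fold changes of 0.60 and 1.10 with the empty vector (limma adjusted p = 1.61e-04 and 1.72e-04) and of 0.44 and 1.06 with HOTAIR, of which that of CDK4 was under the 1.5-fold threshold. Without DCIS.COM pCDH-empty 1 that of CDK4 with the empty vector was also under it, at 0.52.

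**Figure D3:**
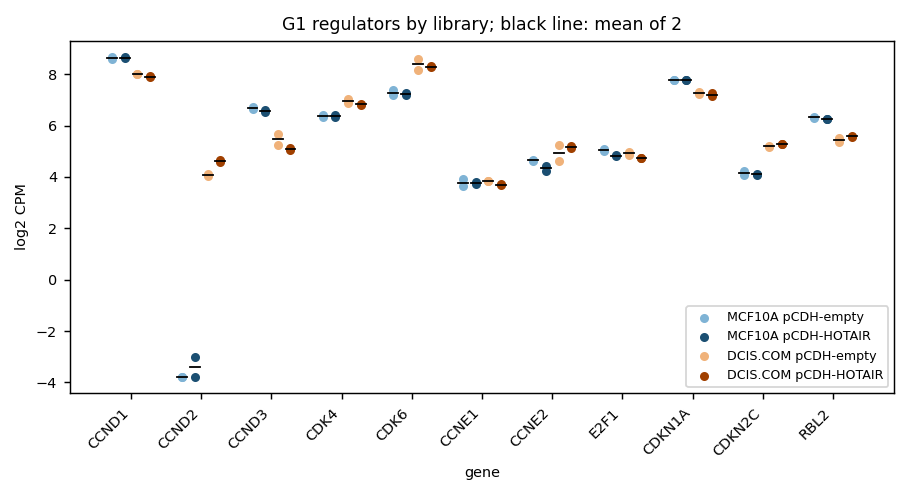
Log2 CPM of 11 G1 regulators, with a point for each library, coloured by group, and a black line at the mean of the 2 libraries of a group. CCND2 sits at the floor of the scale, at or next to 0 reads, in the 4 MCF10A libraries and between 4.03 and 4.66 in DCIS.COM, whereas CCND1 and CCND3 are lower in DCIS.COM than in MCF10A and CCNE1 and E2F1 overlap.

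Among the CDK inhibitors and pocket proteins, 8 of 11 were measured and CDKN2A, CDKN2B and CDKN1C were not analysed here. With the empty vector 2 of the 8 were called higher in DCIS.COM (25.0%, against 22.5% of all genes) and 1 lower (12.5%, against 23.8%), so that the share called higher was near that of all genes. CDKN2C, an inhibitor of CDK4 and CDK6, rose by a log2 fold change of 1.05 (limma adjusted p = 9.89e-06) and CDKN3, a CDK-associated phosphatase, by 0.80 (adjusted p = 3.95e-05). RBL2, the pocket protein p130 of resting cells, fell by 0.88 on the log2 scale (adjusted p = 2.16e-05). CDKN1A, the p21 inhibitor, had log2 CPM values of 7.79 and 7.78 in MCF10A pCDH-empty and 7.31 and 7.24 in DCIS.COM pCDH-empty. That is a log2 fold change of -0.51 with the empty vector (limma adjusted p = 1.74e-04) and -0.56 with HOTAIR, both under the 1.5-fold threshold. CDKN1B and RB1 were not called with either vector, with log2 fold changes of -0.13 and -0.17 with the empty vector, which were 0.14 and 0.10 without DCIS.COM pCDH-empty 1. MYC, a transcription factor that promotes entry into the cycle, fell by 0.88 on the log2 scale with the empty vector and by 1.38 with HOTAIR (limma adjusted p = 1.49e-04 and 1.03e-05).

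Licensing and replication fork genes made up the largest S phase group, and 8 of the 12 were called higher in DCIS.COM with the empty vector and 7 with HOTAIR. The shares of all genes called higher in these comparisons were 22.5% and 22%. MCM2 had the largest difference of all 46 genes with the empty vector when all libraries were kept. Its log2 CPM was 6.97 and 6.92 in MCF10A pCDH-empty, 6.83 and 6.81 in MCF10A pCDH-HOTAIR, 8.66 and 8.30 in DCIS.COM pCDH-empty and 8.14 and 8.19 in DCIS.COM pCDH-HOTAIR. This corresponded to a 2.91-fold difference with the empty vector (log2 fold change 1.54, SE 0.11, limma adjusted p = 5.31e-06) and a 2.54-fold difference with HOTAIR (log2 fold change 1.35). MCM2 lies on chromosome 3 from 127317253 to 127341279 (GRCh37).

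MCM2 to MCM7 form a heterohexamer, yet their differences were unequal. With the empty vector the log2 fold change was 1.54 for MCM2, 0.91 for MCM7, 0.87 for MCM5, 0.68 for MCM4, 0.44 for MCM3 and 0.33 for MCM6, and those of MCM3 and MCM6 had adjusted p-values of 6.10e-04 and 0.00379 but did not reach a 1.5-fold change. Per kilobase, the highest of the 6 subunits exceeded the lowest by 2.09-fold in MCF10A pCDH-empty (MCM7 over MCM5) and by 2.81-fold in DCIS.COM pCDH-empty (MCM7 over MCM6). The annotated span of MCM7 overlaps AP4M1 on the opposite strand. CDC45 and GINS2, which join the MCM ring in the active helicase, had log2 fold changes of 1.15 and 1.16 with the empty vector and 0.99 and 1.08 with HOTAIR. The loading factors CDC6 and CDT1 had 0.66 and 0.98 with the empty vector. UHRF1, which recognises hemimethylated DNA behind the fork, had 0.36.

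PCNA was not called in either comparison. Its log2 CPM was 7.45 and 7.41 in MCF10A pCDH-empty and 7.47 and 7.60 in DCIS.COM pCDH-empty, a log2 fold change of 0.11 (95% interval -0.05 to 0.27, limma adjusted p = 0.205). With HOTAIR it was 7.16 and 7.08 in MCF10A and 7.50 and 7.57 in DCIS.COM, a log2 fold change of 0.41 (adjusted p = 9.56e-04), which was under the 1.5-fold threshold. Of the nucleotide supply genes, RRM2 was called with both vectors, at log2 CPM values of 7.83 and 7.75 in MCF10A pCDH-empty and 8.98 and 8.97 in DCIS.COM pCDH-empty (log2 fold change 1.18, SE 0.060, limma adjusted p = 8.82e-07). RRM1, the large subunit of the same enzyme, had 0.53 and TYMS, thymidylate synthase, had 0.39. TYMS shares its locus with ENOSF1 and TYMSOS on the opposite strand.

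Mitosis genes were called higher in 14 of 26 cases with the empty vector and in 15 with HOTAIR, and none was called lower. Of all genes, 22.5% and 22% were called higher in these comparisons, and 23.8% and 21.7% lower. CDC25C, the least abundant of the 46 in MCF10A, had log2 CPM values of 3.19 and 3.28 in MCF10A pCDH-empty, 2.98 and 3.21 in MCF10A pCDH-HOTAIR, 4.65 and 4.47 in DCIS.COM pCDH-empty and 4.59 and 4.63 in DCIS.COM pCDH-HOTAIR. All DCIS.COM libraries were above all MCF10A libraries, with a log2 fold change of 1.33 with the empty vector (SE 0.11, limma adjusted p = 1.69e-05) and 1.51 with HOTAIR (adjusted p = 7.93e-06). Its span on chromosome 5 from 137620958 to 137674044 overlaps FAM53C on the opposite strand. Among the other drivers of mitotic entry, FOXM1, the transcription factor of the mitotic program, had a log2 fold change of 0.93 with the empty vector, and the kinases PLK1, AURKA and AURKB had 0.72, 0.76 and 0.62. CCNA2, the cyclin A gene, had 0.36.

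CDK1, the kinase of mitotic entry, did not follow them with the empty vector. Its log2 CPM was 6.83 and 6.80 in MCF10A pCDH-empty, and 6.50 and 7.09 in DCIS.COM pCDH-empty, so that the DCIS.COM libraries lay on either side of MCF10A. Its log2 fold change was -0.02 (SE 0.16, 95% interval -0.39 to 0.35, limma adjusted p = 0.927). Without DCIS.COM pCDH-empty 1 it was 0.27, and without DCIS.COM pCDH-empty 2 it was -0.31. After correction for GC content it was 0.30 (limma adjusted p = 0.00204), and adjusted p-values over the alternatives spanned 0.000699 to 0.996. With HOTAIR, CDK1 had 6.66 and 6.63 in MCF10A against 7.06 and 7.17 in DCIS.COM, a log2 fold change of 0.47 (adjusted p = 0.0302) that was under the 1.5-fold threshold.

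Subunit pairs of similar function differed in their ratio between the lines. These 6 pairs were chosen after their values were seen and were not tested. The log2 ratio of CCNB2 to CCNB1, the cyclins B2 and B1, was -1.84 to -1.78 in the 4 MCF10A libraries and -0.92 to -0.88 in the 4 DCIS.COM libraries, a difference of 0.91. CCNB1 itself differed little, with a log2 fold change of 0.25 (limma adjusted p = 0.00688), whereas CCNB2 had 1.14 (adjusted p = 1.85e-06). The log2 ratio of RRM2 to RRM1 was 0.67 to 0.79 in MCF10A and 1.23 to 1.36 in DCIS.COM, and that of the checkpoint kinase BUB1 to its relative BUB1B was -0.83 to -0.68 and -0.26 to -0.19. For AURKA to AURKB the ranges were 1.49 to 1.59 and 1.53 to 1.78 and overlapped, as did those of CCNE2 to CCNE1 and of CDK2 to CDK1. Reads of BUB1B are uncertain because PAK6 overlaps its annotated span on the same strand, as does OIP5-AS1 that of NUSAP1. CCNE2, CDK2, GINS2, CCNA2, FOXM1 and ANLN overlap a gene of the table on the opposite strand.

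At the spindle checkpoint, BUB1, UBE2C and CDC20 were called higher in DCIS.COM with the empty vector. CDC20, the activator of the anaphase-promoting complex, had log2 CPM values of 6.96 and 6.96 in MCF10A pCDH-empty and 7.93 and 7.55 in DCIS.COM pCDH-empty (log2 fold change 0.78, SE 0.11, limma adjusted p = 3.59e-04). With HOTAIR the log2 fold change of CDC20 was 0.54, under the 1.5-fold threshold. Spindle and kinetochore genes held several of the largest differences with the empty vector, namely CENPF at 1.25, the motor KIF20A at 1.22, survivin (BIRC5) at 1.14 and NUSAP1 at 1.02. With HOTAIR, NUSAP1 had 1.27 and BIRC5 1.26, next to CDC25C and MCM2 at the top of the order. CENPF was at 7.23 and 7.62 in MCF10A pCDH-empty and at 8.55 and 8.80 in DCIS.COM pCDH-empty on the log2 CPM scale. KIF20A, which overlaps BRD8 and CDC23 on the opposite strand, was at 6.81 and 6.75 against 8.08 and 7.91. ANLN was the exception in this role, at 8.96 and 8.94 in MCF10A pCDH-empty and 8.80 and 8.86 in DCIS.COM pCDH-empty (log2 fold change -0.12, 95% interval -0.26 to 0.02, adjusted p = 0.105).

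The clinical proliferation marker MKI67, which encodes Ki-67, had the widest gap of the 46 genes between the MCF10A pCDH-empty libraries, at log2 CPM values of 6.63 and 7.24 with the empty vector and 6.98 and 6.87 with HOTAIR. In DCIS.COM it was at 8.12 and 8.06 with the empty vector and 7.70 and 7.54 with HOTAIR. Every DCIS.COM library was above every MCF10A library, and the log2 fold change was 1.15 with the empty vector (SE 0.17, limma adjusted p = 4.57e-04) and 0.69 with HOTAIR (adjusted p = 0.00744). The latter call was lost without MCF10A pCDH-HOTAIR 2 (adjusted p = 0.0545) and without DCIS.COM pCDH-HOTAIR 1 (adjusted p = 0.0542). TOP2A, topoisomerase II alpha, differed less, from 8.30 and 8.45 in MCF10A pCDH-empty to 8.51 and 8.86 in DCIS.COM pCDH-empty, a log2 fold change of 0.31 (adjusted p = 0.041) under the 1.5-fold threshold.

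Lists of other genes of these processes were counted in the same way, and the shares of all genes called higher and lower to set beside them are 22.5% and 23.8% with the empty vector and 22% and 21.7% with HOTAIR. Of 44 other DNA replication genes, 23 (52.3%) were called higher and 1 lower in DCIS.COM with the empty vector, and 23 (52.3%) higher and 0 lower with HOTAIR. CHAF1B, a chromatin assembly factor, and LIG1, the ligase of Okazaki fragments, led with log2 fold changes of 1.39 and 1.38 with the empty vector, and ORC2, an origin recognition subunit, had -0.62. With HOTAIR, TIPIN, a fork protection factor, and LIG1 led at log2 fold changes of 1.5 and 1.40. Of 63 other mitosis genes, 31 (49.2%) were called higher and 0 lower with the empty vector and 36 (57.1%) and 1 with HOTAIR. KIF18B and PIMREG led at 1.51 each with the empty vector, and MAD1L1 was the one called lower with HOTAIR, at -0.63. PIMREG and HMMR, a spindle-binding protein, led with HOTAIR at 1.49 and 1.24. Of 16 other E2F, DREAM and MYB factors, 3 (18.8%) were called higher and 0 lower with the empty vector, a share called higher near that of all genes. E2F7 and E2F6, repressive E2F factors, had 1.30 and 0.84 there. E2F8, the closest relative of E2F7, had -0.57 with the empty vector, which was not called, and -0.75 with HOTAIR (limma adjusted p = 1.87e-04). With HOTAIR 4 of the 16 (25.0%) were called higher and 1 (6.25%) lower. Of 14 other cyclins, CDKs and their switches, 8 (57.1%) were called higher and 2 (14.3%) lower with the empty vector, and PKMYT1, an inhibitory kinase of CDK1, had 1.28. The medians of these 4 lists were 0.60, 0.58, 0.25 and 0.66 on the log2 scale with the empty vector.

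No gene of the 46 was called for HOTAIR against the empty vector in either line. In MCF10A, 0 of the 46 were called by limma and 8 had an unadjusted p-value under 0.05, all 8 lower with HOTAIR, while 0.0218% of all genes were called higher and 0% lower, and at the unadjusted threshold 4.41% were higher and 2.88% lower. In DCIS.COM, 0 were called and 13 had an unadjusted p-value under 0.05, all 13 lower, against 0.0871% of all genes called higher, 0% called lower and, at the unadjusted threshold, 9.08% higher and 8.41% lower. With limma-voom on the recovered reads the count was also 0 in both lines, with 5 and 14 genes at an unadjusted p-value under 0.05. The counts at the unadjusted threshold moved with single libraries. In MCF10A the count rose without either DCIS.COM pCDH-empty library, which changes the pooled spread and not the fold changes. It fell without any other library. In DCIS.COM it rose without DCIS.COM pCDH-empty 2 and fell most without DCIS.COM pCDH-HOTAIR 1. Each such fit leaves 1 library in a group. The share of all genes at this threshold is not given for these fits, so the movements cannot be read as particular to the 46 genes. The lowest adjusted p-value was 0.305 in MCF10A and 0.183 in DCIS.COM. The 95% intervals of 45 genes in MCF10A and 42 genes in DCIS.COM lay within a 1.5-fold change in either direction, against 74.8% and 66.9% of all genes.

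Small shifts below 0 were frequent nonetheless. In MCF10A, 18 of 20 S phase and 23 of 26 mitosis genes had a log2 fold change below 0, against 51.8% of all genes, and the medians were -0.11 and -0.09 against -0.01 for all genes. Both HOTAIR libraries were below both empty-vector libraries in 29 of the 46 genes, against 24.8% of all genes, and above them in 1, against 22.5%. In DCIS.COM, 18 of 20 S phase and 15 of 26 mitosis genes were below 0, against 47.7% of all genes, with medians of -0.19 and -0.03 against 0.01. There both HOTAIR libraries were below both empty-vector libraries in 18 of the 20 S phase genes and 7 of the 26 mitosis genes, against 24.5% of all genes, and above them in 1 gene, against 24.7%. In both lines 28 genes (16 of S phase and 12 of mitosis) were below 0 and 0 were above 0, against 24.3% of all genes for either. With 41 of the 46 genes below 0 in MCF10A and 33 in DCIS.COM, 28 is the fewest possible. The count thus shows no agreement between the lines beyond the shift within each, and the genes are not replicates.

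**Figure D4:**
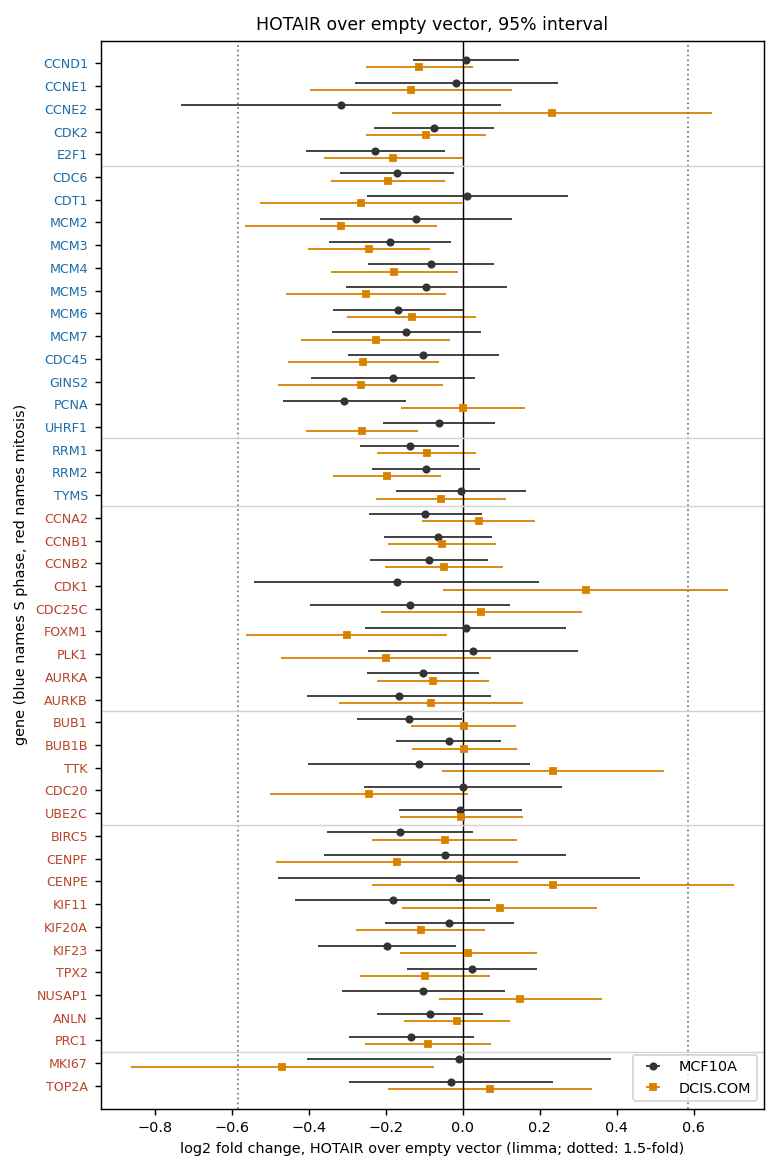
Log2 fold change of HOTAIR over the empty vector from limma for each of the 46 genes, with its 95% interval, in MCF10A (circles) and DCIS.COM (squares), and dotted lines at a 1.5-fold change. Most points lie between -0.3 and 0, PCNA is lowest in MCF10A among the genes with narrow intervals, and MKI67 is lowest in DCIS.COM.

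Of the 13 genes with an unadjusted limma p-value under 0.05 in DCIS.COM, all lower with HOTAIR, 10 were licensing and fork genes. At this threshold 8.41% of all genes were lower and 9.08% higher. The 12 licensing and fork genes had a median log2 fold change of -0.25. UHRF1 had the lowest p-value of the 46 in this comparison, at log2 CPM values of 7.59 and 7.47 with the empty vector and 7.27 and 7.27 with HOTAIR (log2 fold change -0.26, SE 0.063, limma adjusted p = 0.183). MCM2 had the largest log2 fold change of the S phase genes, -0.32 (adjusted p = 0.246), followed by GINS2 and CDT1 at -0.26 each. Leaving out DCIS.COM pCDH-empty 1, the log2 fold change was -0.14 for MCM2, -0.20 for UHRF1, -0.13 for GINS2, -0.15 for CDT1 and -0.08 for CCNE2. The S phase genes then had a median of -0.12, against 0.00 for all genes, and all 20 S phase genes were below 0. In that fit DCIS.COM pCDH-empty 2 is the only library of its group, so that all 20 signs rest on it. With all libraries kept, CCNE2 was the highest S phase gene at 0.23 and TYMS had -0.06, while PCNA had 0.00. The log2 CPM values of PCNA were 7.47 and 7.60 with the empty vector and 7.50 and 7.57 with HOTAIR.

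Among the mitosis genes in DCIS.COM, MKI67 had the largest log2 fold change, -0.47 (SE 0.17, 95% interval -0.86 to -0.07, limma adjusted p = 0.257), and it was -0.44 without DCIS.COM pCDH-empty 1. Both HOTAIR libraries of MKI67 were below both empty-vector libraries. FOXM1 had -0.30 and CDC20 -0.24. Of the other textbook genes, E2F1 had -0.18, CCNE1 -0.14, CCND1 -0.11, CCNB1 -0.05 and TOP2A 0.07. Without DCIS.COM pCDH-empty 1, FOXM1 had -0.12, CDC20 -0.05, E2F1 -0.25, CCNB1 -0.02 and TOP2A -0.10. At the other end CDK1 had 0.32, CENPE, a kinetochore motor, 0.23, and the checkpoint kinase TTK 0.23 (limma adjusted p = 0.322, 0.522 and 0.340). Within DCIS.COM these 3 genes were lowest in pCDH-empty 1. CDK1 was at 6.50 there and at 7.09, 7.06 and 7.17 in the other 3 DCIS.COM libraries on the log2 CPM scale. CENPE was at 6.20 against 6.94, 6.83 and 6.78, and without that library its log2 fold change was -0.14, that of CDK1 0.03 and that of TTK 0.03.

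In MCF10A the lowest S phase values were those of CCNE2 at -0.32, PCNA at -0.31 and E2F1 at -0.23. PCNA was at 7.45 and 7.41 with the empty vector and 7.16 and 7.08 with HOTAIR on the log2 CPM scale, so that the groups did not overlap (SE 0.069, limma adjusted p = 0.305). E2F1 was at 5.10 and 5.02 against 4.84 and 4.83 (adjusted p = 0.560). At the upper end, CDT1, CCND1 and TYMS had 0.01, 0.01 and -0.00422. The lowest mitosis values were those of KIF23, a motor of the central spindle, at -0.20, KIF11, a motor of spindle poles, at -0.18 and CDK1 at -0.17, and the highest were PLK1 at 0.03, TPX2 at 0.02 and FOXM1 at 0.01. MKI67 had -0.01 (95% interval -0.40 to 0.38; -0.31 without MCF10A pCDH-empty 1 and 0.29 without MCF10A pCDH-empty 2), CCNB1 -0.06, CDC20 -0.000344, TOP2A -0.03, CCNE1 -0.02 and MCM2 -0.12.

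The difference between the HOTAIR effects in the lines was tested as an interaction in limma. Of the 46 genes, 0 had an adjusted p-value under 0.05, against 0.0363% of all genes with a higher and 0.00726% with a lower effect in DCIS.COM, and 1 had an unadjusted p-value under 0.05, against 5.21% and 5.34%. The 95% intervals of 36 of the 46 lay within a 1.5-fold change in either direction, against 48.8% of all genes. The gene was PCNA, whose effect in DCIS.COM exceeded that in MCF10A by 0.31 on the log2 scale (95% interval 0.08 to 0.53, adjusted p = 0.421). The largest differences were those of CCNE2 at 0.55 (95% interval -0.04 to 1.14) and CDK1 at 0.49, and the lowest those of MKI67 at -0.46, FOXM1 at -0.31 and CDT1 at -0.28. CDC20 had -0.24, PLK1 -0.23 and UHRF1 -0.20. TTK and KIF11 had 0.35 and 0.28, E2F1 0.05 and MCM2 -0.19. With limma-voom the count at an unadjusted p-value under 0.05 was also 1 and 0 were called. The counts rested on DCIS.COM pCDH-empty 2, and without it neither the interaction nor HOTAIR in DCIS.COM stayed at 0 calls. In that fit DCIS.COM pCDH-empty 1 is the only library of its group and is assumed to vary like the others. The log2 fold changes of CDK1 and CENPE with HOTAIR in DCIS.COM were then both 0.61. The median interaction of the S phase genes was then -0.12. Without DCIS.COM pCDH-empty 1 that median was -0.01, against -0.08 with all libraries. In that fit the interaction of CCNE2 was 0.24, that of CDK1 0.20, of TTK 0.14, of MKI67 -0.43, of FOXM1 -0.12, of CDT1 -0.16, of CDC20 -0.05 and of PLK1 -0.03.

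None of the 145 pathway genes outside the 46 that were in the table was called by limma for HOTAIR in either line, and 15 in MCF10A (10.3%, against 7.28% of all genes) and 27 in DCIS.COM (18.6%, against 17.5%) had an unadjusted p-value under 0.05. Their median log2 fold change was -0.10 in MCF10A and -0.05 in DCIS.COM. MYC had 0.14 in MCF10A and -0.37 in DCIS.COM (limma adjusted p = 0.222), and CDKN1B -0.02 and 0.40 (adjusted p = 0.268). CDKN1A had -0.02 and -0.08, and RB1 -0.05 and 0.29. Without DCIS.COM pCDH-empty 1 the values in DCIS.COM were -0.19 for MYC, 0.13 for CDKN1B, -0.04 for CDKN1A and 0.03 for RB1.

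The gap between the 2 empty-vector libraries of DCIS.COM followed base composition. Across the 46 genes, the difference in log2 CPM between DCIS.COM pCDH-empty 1 and 2 correlated with the GC content of the transcript at r = 0.73, against -0.25 between the DCIS.COM pCDH-HOTAIR libraries, 0.24 between the MCF10A pCDH-empty and 0.12 between the MCF10A pCDH-HOTAIR libraries, and over all 13267 genes with a value it was 0.47 in DCIS.COM pCDH-empty. The points share libraries, and the correlation describes them. CENPE, with a GC content of 35.4%, differed by -0.75, CCNE2 with 36.9% by -0.63 and CDK1 with 37.0% by -0.59, whereas MCM2 with 57.4% differed by 0.36 and PLK1 with 57.1% by 0.39. E2F1 with 61.6% and NUSAP1 with 48.3% ran against this at -0.13 and -0.26. The S phase transcripts had a median GC content of 49.6% and the mitosis transcripts of 45.3%. Averaged over genes, the S phase level relative to the gene means was 0.38 in DCIS.COM pCDH-empty 1 and 0.31 in DCIS.COM pCDH-empty 2, against 0.17 and 0.19 with HOTAIR. The mitosis level was 0.34 and 0.37 against 0.31 and 0.33. In MCF10A the S phase level was -0.17 and -0.23 with the empty vector and -0.32 and -0.33 with HOTAIR, and the mitosis level -0.30 and -0.29 against -0.37 and -0.38. After correction for GC content within each library, the median HOTAIR effect in DCIS.COM was -0.15 for the S phase and -0.04 for the mitosis genes, and 0 of the 46 were called.

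**Figure D5:**
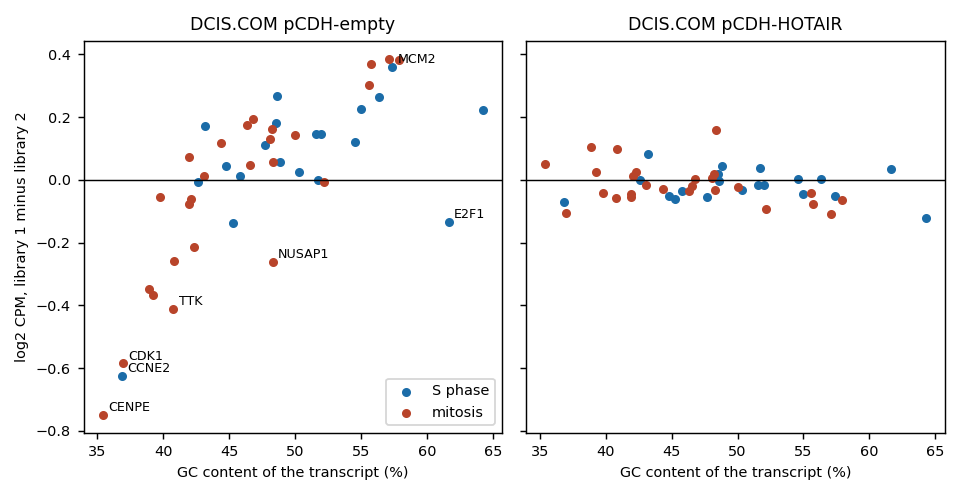
Difference in log2 CPM between library 1 and library 2 of a group (vertical axis) against the GC content of the transcript in percent (horizontal axis) for the 46 genes, in DCIS.COM pCDH-empty (left) and DCIS.COM pCDH-HOTAIR (right). On the left the points climb from CENPE at -0.75 to PLK1 at 0.39, and on the right they stay near 0.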

How the data were processed

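RNA was sequenced from 8 libraries as 76 nt paired ends (ScriptSeq), 2 for each cell line and vector. Per the submitters' notes and the methods of the study, alignment to the human build hg19, which is GRCh37, was done in Rsubread, and featureCounts then assigned reads to the UCSC known gene set. The values the authors deposited are log2 CPM, scaled in edgeR, of 13771 genes. Strand in counting is not given in the sources used here, so that the 13 genes whose span overlaps another gene of the table are uncertain. Whole reads were recovered for 100% of the values (tolerance 0.05 reads).

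From these values, limma 3.58.1 in R 4.3.3 was fitted to 4 group means with a mean-variance trend and Benjamini-Hochberg adjustment over all genes. It was first tried on simulated data, which gave every library the same spread. That test does not cover the wider gap between the DCIS.COM pCDH-empty libraries. The count tests planned for this step were not run, and limma-voom was run on the recovered reads instead. Exact permutation of 2 against 2 libraries cannot give a p-value under 0.333. Intervals are at 95%. The named genes were HOTAIR, 10 textbook genes, called members (the 4 largest in each direction where over 12), the 3 highest and 3 lowest of each phase for HOTAIR and the interaction, the 2 largest calls of each other list, and 5 inhibitors and regulators. The members and lists were chosen with earlier results of these data known. Alternatives were other pseudocounts (0.1 and 1 CPM), a mean CPM of at least 2, median centring, rescaling without RN7SL1 and RN7SL2, GC and length correction (loess, span 0.4), no trend, a replicate block, other thresholds, limma-voom and each library left out. GC content and length came from GENCODE release 44 (96.3% of genes). Python 3.11.15 was used for the rest.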

Additional observations from a re-analysis of the deposited data

How the results depend on the processing

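Calls among the 46 genes were 0 for HOTAIR in MCF10A under every alternative run, with the 1.5-fold threshold included. In DCIS.COM and for the interaction they were 0 except when a library was left out, where they ranged from 0 to 2 and from 0 to 18, the highest without DCIS.COM pCDH-empty 2. Between the lines, 24 genes were called with the empty vector and 25 with HOTAIR. At the same thresholds the alternatives gave 24 to 26 (the highest with GC correction and without DCIS.COM pCDH-empty 1) and 23 (without MCF10A pCDH-HOTAIR 2) to 29 (rescaled without RN7SL1 and RN7SL2). Without a fold threshold these counts were 38 and 41, and with a log2 fold change of at least 1.5 they were 1 and 1. For HOTAIR in either line, the count by the adjusted p-value alone was 0 with all 8 libraries kept. It was not 0 in MCF10A without either DCIS.COM pCDH-empty library. Nor was it 0 in DCIS.COM without DCIS.COM pCDH-empty 2, where it exceeded the number of calls. These fits leave 1 library in the DCIS.COM pCDH-empty group. No result reversed its direction while called. Over all genes, calls ranged from 1 to 51 for HOTAIR in MCF10A, 1 to 1403 in DCIS.COM, 0 to 4414 for the interaction, 2418 to 9394 between lines with the empty vector and 2357 to 9024 with HOTAIR.

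The median log2 fold changes moved as follows. With GC correction they were -0.062 for mitosis genes in MCF10A, -0.15 for S phase genes in DCIS.COM, -0.026 (S phase) and 0.041 (mitosis) for the interaction and 0.57 for S phase genes between lines with the empty vector. With median centring the mitosis medians were -0.051 in DCIS.COM, 0.033 for the interaction, 0.70 between lines with the empty vector and 0.71 with HOTAIR, and the S phase median was 0.53 with the empty vector. Rescaled without RN7SL1 and RN7SL2, the mitosis medians were -0.013, 0.084, 0.68 and 0.74 in the same order, and the S phase median with HOTAIR was 0.63. With length correction the mitosis medians were -0.048 in DCIS.COM, 0.041 for the interaction and 0.67 between lines with HOTAIR. With a pseudocount of 1 CPM the mitosis median between lines with the empty vector was 0.64.

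Leaving out each library in turn gave, for S phase and mitosis genes, -0.15 to -0.092 and -0.095 to -0.065 in MCF10A, -0.22 to -0.12 and -0.049 to -0.0023 in DCIS.COM, and -0.12 to -0.0086 and 0.019 to 0.082 for the interaction. Between lines it gave 0.46 to 0.56 and 0.63 to 0.74 with the empty vector, and 0.56 to 0.59 and 0.67 to 0.69 with HOTAIR. The causes of these movements were not tested.

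Deviations of same-numbered libraries correlated at 0.066 between the MCF10A groups and -0.0089 between the DCIS.COM groups. No shift shared by replicate number was thus seen, which cannot show whether same-numbered libraries were handled together. With the number as a replicate block, calls among the 46 genes stayed at 0, 0, 0, 24 and 25, and 20 genes in all were called for HOTAIR in DCIS.COM, against 12. The planned edgeR quasi-likelihood and DESeq2 alternatives were not run. In their place limma-voom on recovered reads, added after seeing the data, gave 0, 0, 0, 24 and 25 calls. With 2 libraries a group, the number of libraries limits the precision.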
